A study of Mus musculus with 6 samples.

Results

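The genes described here are 10 transcription factors and regulators of the AP-1 and immediate early group, among 23896 genes with a symbol in the count tables: Jun, Junb, Jund, Fos, Fosb, Fosl2, Atf3, Egr1, Ier2 and Ier3. They were chosen by name, and each gene was represented by the RefSeq transcript with the highest mean count. The cells were MEL cells, a mouse erythroleukemia line held at the proerythroblast stage that makes hemoglobin when it is given dimethyl sulfoxide (DMSO). The 3 groups were day 0, day 2 and day 4 of 2% DMSO, with 2 biological replicates each, and cells of every group were grown in suspension in serum-containing medium. They represent 1 transformed line in culture, so the p-values cover the spread between cultures of that line only.

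AP-1 is a dimer of basic leucine zipper proteins. Jun proteins pair with each other or with Fos proteins, and ATF proteins can take the place of either partner. Many of these genes are immediate early genes, transcribed within minutes of a serum, growth factor or stress signal through the ERK, JNK and p38 kinases and the serum response factor SRF, and their mRNAs are mostly short-lived. In hematopoietic cells JUN is known for favoring the monocytic fate and JUNB for restraining proliferation.

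All 10 genes had counts in all 6 libraries and all passed the filter on low counts, but Jun and Fos passed it through the day 0 libraries alone. The libraries held between 35294930 and 53899476 counts assigned to transcripts. The 11 erythroid markers summed to between 1175 and 1223 CPM at day 0 (CPM is a read count scaled to library size, here with TMM factors) and to between 17972 and 20161 CPM at day 4, and 10 of the 11 rose, whereas Klf1 fell by 0.54 (log2). Because these are bulk libraries, fewer cells of a type and less RNA per cell cannot be told apart.

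Short windows upstream of 3 of the genes are shown to give the letters of a motif found near each start. They come from the RefSeq promoter table for GRCm38.p6, which covers 250 bases before to 50 bases after each start and has an entry for 8 of the 10 genes. Each window is written 5′ to 3′ on the strand of its gene, capitals mark the motif, and positions count from 0 at the start base.

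Jun (chr4:95052251-95052276, minus strand, motif at -45 to -38): gcctcggggTGACATCAtgggctatt
Fos (chr12:85473848-85473871, plus strand, motif at -33 to -28): cagcgcttcTATAAAggcgccagc
Fosl2 (chr5:32136384-32136410, plus strand, motif at -79 to -71): cggctgcgcGCGGGGGCGgaagggcgc

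The motifs searched on both strands were TGACNTCA (the AP-1 and CREB type element), TGANTCA (the other AP-1 element), GCGNGGGCG (the EGR element), CCAAT (the NF-Y element), the CArG box of SRF and TATAAA (the TATA box). TGACNTCA was found in Jun alone of the 8, against 8.83% of all promoters in the table. GCGNGGGCG was found in Fosl2 and in the table's entry for Fosb, and in 5.55% of all promoters. The Fosb entry counts from another start than that of the transcript used here, and its match lies inside that transcript, so it is not shown. TATAAA was found in Fos and Junb (13.6% of all promoters), and CCAAT in Jun, Junb, Atf3 and Ier3 (37.4%). The TATAAA of Junb (0 to 5) and the CCAAT of Atf3 (5 to 9) also lie inside the transcript, not upstream of its start. No matches overlapped each other, and neither TGANTCA (7.81% of all promoters) nor the CArG box (1.63%) was found in the 8 windows, which says only that these letters are not there.

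In the Jun family, Junb and Jund rose. Jun had at most 23 reads in a library on any day, and its called falls carry the limits given below. Junb (NM_008416, GRCm38 chr8:84976909-84978748, 1 exon, minus strand), the Jun protein known as a weaker activator, had 35.5 and 45.0 CPM at day 0, 49.8 and 59.8 at day 2, and 86.7 and 91.8 at day 4. Both libraries of each later day lay above both of the day before. Junb rose 1.36-fold from day 0 to day 2 (log2 fold change 0.44 ± 0.14 SE, adjusted p = 0.0145, edgeR quasi-likelihood test) and 1.63-fold from day 2 to day 4 (0.70 ± 0.14, adjusted p = 0.00357). The net rise from day 0 to day 4 was 2.22-fold (1.15 ± 0.14, adjusted p = 1.92e-05). The first step lost its call without day 2 replicate 2 (0.31, adjusted p = 0.166) and the second without day 2 replicate 1 (0.57, adjusted p = 0.0797).

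Jund (NM_001286944, chr8:70697739-70700616, 1 exon, plus strand), the Jun protein known for steady expression in resting cells, had 24.2 and 29.9 CPM at day 0, 27.9 and 29.0 at day 2, and 46.7 and 48.9 at day 4. The day 0 and day 2 libraries overlapped, and both day 4 libraries stood above all others. Between day 0 and day 2 the log2 fold change was 0.07 ± 0.13 (adjusted p = 0.637), and from day 2 to day 4 Jund rose 1.68-fold (0.75 ± 0.13, adjusted p = 0.00176). Its exon shares 877 bases with exons of Gm11175 on the opposite strand.

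Jun (NM_010591, chr4:95049036-95052222, 1 exon, minus strand), the founding AP-1 subunit, had 17 and 23 reads at day 0, 2 and 8 at day 2, and 3 and 6 at day 4. In CPM these were 0.417 and 0.463, then 0.0479 and 0.163, then 0.0831 and 0.133. Every later library lay below both day 0 libraries, and day 2 and day 4 overlapped. Summed over the 2 libraries, the ratio of day 2 to day 0 was 0.249 (95% exact counting interval 0.111 to 0.506), and that of day 4 to day 0 was 0.250 (0.107 to 0.524). The intervals cover counting error only. Jun fell by 1.98 on the log2 scale at day 2 (± 0.51, adjusted p = 0.00558) and by 1.97 at day 4 (± 0.52, adjusted p = 0.0054). It was tested only because its day 0 libraries passed the low-count filter, which limits these calls.

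Both Jun calls were lost with DESeq2 (adjusted p = 0.0676 and 0.0665). The log2 fold change at day 2 was -1.42 without day 2 replicate 1 (adjusted p = 0.0757) and -3.12 without day 2 replicate 2 (adjusted p = 0.0122). Jun shares 232 bases of exon with Junos on the opposite strand.

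**Figure D1:**
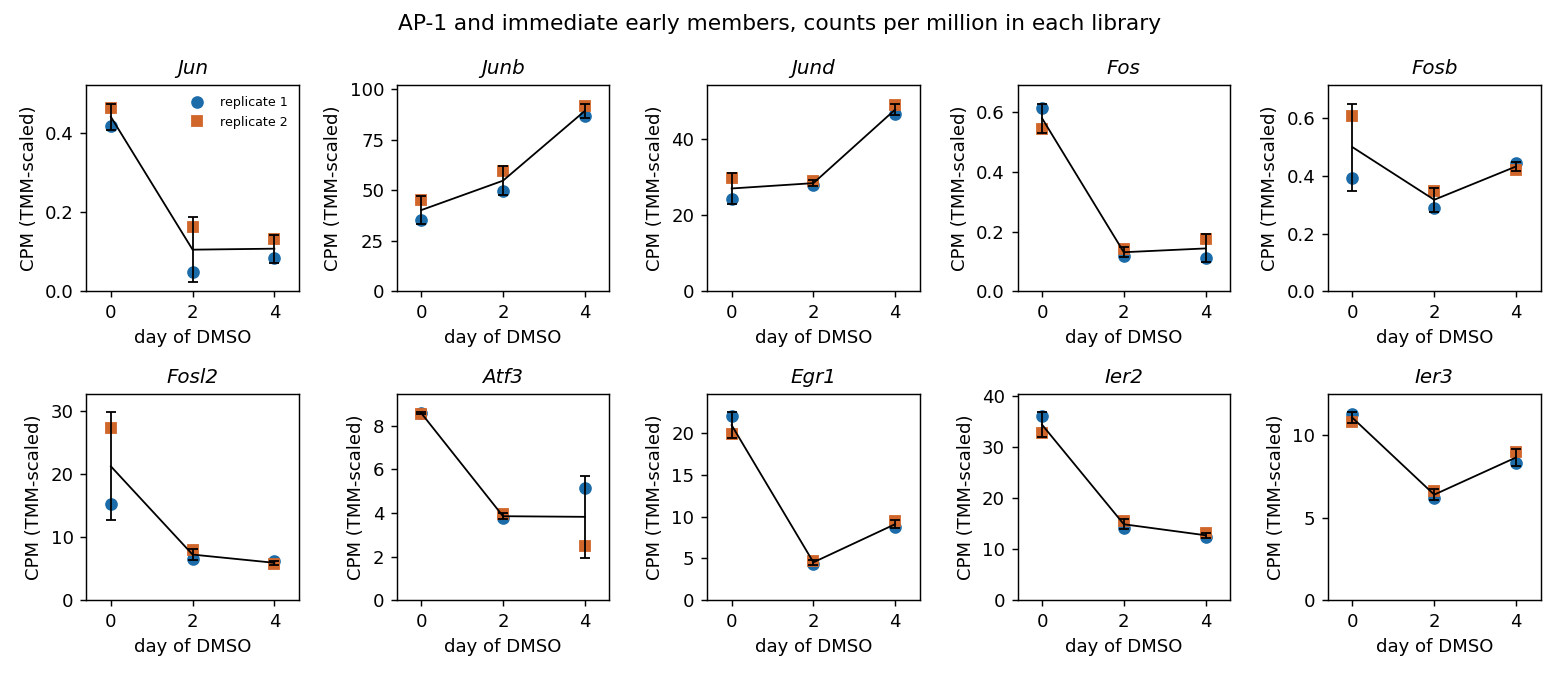
CPM (TMM-scaled, linear axes starting at 0) of each of the 10 genes against the day of DMSO, with circles and squares for replicates 1 and 2, the line through the day means and bars of 1 SD (n = 2 per day). Junb and Jund are highest at day 4, Egr1 and Ier3 are lowest at day 2, and Jun, Fos and Fosb stay below 1 CPM in all libraries.

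In the Fos family, Fos and Fosl2 fell and no change of Fosb was called. Fosl2 (NM_008037, chr5:32136472-32157840, 4 exons, plus strand), which encodes FRA2, had 15.2 and 27.3 CPM at day 0, 6.59 and 7.90 at day 2, and 6.15 and 5.72 at day 4. All 4 later libraries lay below both day 0 libraries, which differed from each other more than those of any other gene of the group did at day 0. Fosl2 fell 2.93-fold by day 2 (log2 fold change -1.55 ± 0.23, adjusted p = 0.000186) and was 3.59-fold lower at day 4 than at day 0 (-1.84 ± 0.24, adjusted p = 3.73e-05). From day 2 to day 4 the log2 fold change was -0.29 ± 0.24 (adjusted p = 0.394). With only day 0 replicate 1 kept the fall at day 2 was -1.07, with only day 0 replicate 2 it was -1.91, and it was called both times.

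Fos (NM_010234, chr12:85473890-85477274, 4 exons, plus strand), the prototype immediate early gene, had 25 and 27 reads at day 0, 5 and 7 at day 2, and 4 and 8 at day 4. These were 0.613 and 0.544 CPM, then 0.120 and 0.142, then 0.111 and 0.177. The day 2 and day 4 libraries overlapped and all lay below day 0. The summed counts at day 2 were 0.230 of those at day 0 (95% exact counting interval 0.112 to 0.436) after scaling, and the fall was called at day 2 (log2 fold change -2.10 ± 0.41, adjusted p = 0.00105) and at day 4 (-1.95 ± 0.41, adjusted p = 0.00131). Fos was tested only because its day 0 libraries passed the low-count filter, which limits these calls.

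Fosb (NM_008036, chr7:19302696-19310118, 4 exons, minus strand), a Fos protein with long and short splice forms, had 16 and 30 reads at day 0, 12 and 17 at day 2, and 16 and 19 at day 4. In CPM it had 0.392 and 0.604, 0.287 and 0.346, and 0.443 and 0.420. Both day 2 libraries lay below all others, but the log2 fold change from day 0 to day 2 was -0.66 ± 0.37 (adjusted p = 0.136). The summed counts at day 2 were 0.627 of those at day 0 with an interval of 0.380 to 1.02, so a fall of that size was not detectable at this depth.

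Per kilobase of exon, the Jun family outweighed the Fos family on every day. Jun, Junb and Jund together had 38.6 ± 6.14 CPM per kilobase at day 0 (SD, n = 2), 47.4 ± 4.42 at day 2 and 78.0 ± 2.92 at day 4. Fos, Fosb and Fosl2 together had 3.66 ± 1.32, 1.25 ± 0.160 and 1.09 ± 0.0285 CPM per kilobase on the same days. Both day 4 libraries lay above day 0 for the Jun family sum and below it for the Fos family sum, with no test run on the sums, and with Fosl1, the remaining Fos gene, added to the Fos sum it was 4.41, 1.31 and 1.16.

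Within the Jun family sum, Junb made up 57.6% at day 0, 63.8% at day 2 and 63.2% at day 4, Jund made up 42.1%, 36.1% and 36.7%, and Jun at most 0.360% as a day mean. Within the Fos family sum, Fosl2 made up 88.2%, 88.4% and 83.3%. Jund's length of 1668 bases is that of the GENCODE exon, whereas over its RefSeq span of 2878 bases it would have 9.40, 9.89 and 16.6 CPM per kilobase, still below Junb on each day. With that length the family sum would be 31.8, 40.2 and 66.0 CPM per kilobase, and the shares at day 0 would be 70.0% for Junb and 29.6% for Jund.

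**Figure D2:**
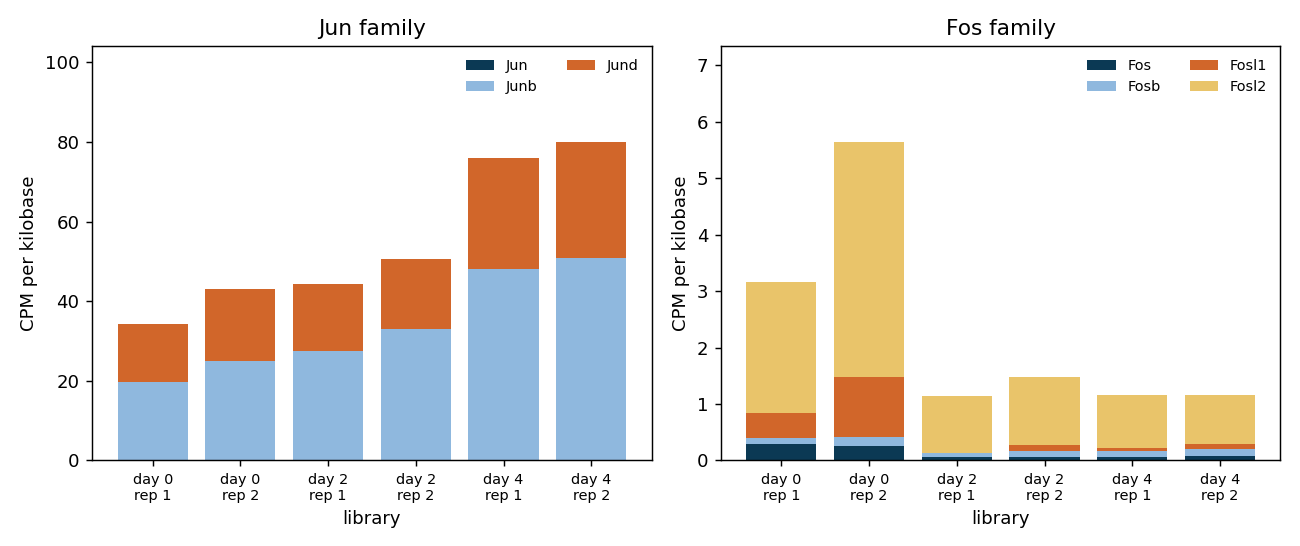
Stacked CPM per kilobase of exon in each of the 6 libraries for the Jun family (left) and the Fos family with Fosl1 (right), on linear axes of different height that start at 0. The Jun family bars reach 76.0 and 80.1 at day 4, the Fos family bars are highest in day 0 replicate 2 at 5.65, and Jun itself is too thin to see.

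Atf3 (NM_007498, chr1:191170296-191183333, 4 exons, minus strand), a stress-induced ATF protein that represses as a homodimer, had 8.60 and 8.56 CPM at day 0, 3.76 and 3.95 at day 2, and 5.15 and 2.50 at day 4. Day 0 lay above all later libraries, and the day 4 libraries lay on either side of those of day 2. Atf3 fell 2.22-fold by day 2 (log2 fold change -1.15 ± 0.26, adjusted p = 0.00247) and was 2.27-fold lower at day 4 than at day 0 (-1.18 ± 0.26, adjusted p = 0.00173). Without day 4 replicate 2 the day 4 value was -0.74 (adjusted p = 0.00655), and without day 4 replicate 1 it was -1.78 (adjusted p = 3.07e-05).

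Egr1 fell and then came back in part. This gene (NM_007913, chr18:34861207-34864956, 3 exons, plus strand) encodes a zinc finger factor induced by serum through SRF, and it had 22.0 and 19.9 CPM at day 0, 4.34 and 4.74 at day 2, and 8.78 and 9.44 at day 4. The 3 days did not overlap. It fell 4.61-fold by day 2 (log2 fold change -2.20 ± 0.14, adjusted p = 5.54e-07), the largest fall of the 10 genes at that step, and rose 2.01-fold from day 2 to day 4 (1.00 ± 0.14, adjusted p = 0.000776). At day 4 it stood at 43.5% of its day 0 mean, a log2 fold change of -1.20 ± 0.13 (adjusted p = 1.2e-05). These calls and their directions held under all 15 alternatives tried.

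Ier2 (NM_010499, chr8:84661331-84662852, 1 exon, minus strand), a short-lived nuclear protein of the immediate early response, had 36.1 and 32.7 CPM at day 0, 14.2 and 15.6 at day 2, and 12.4 and 13.1 at day 4. Both day 4 libraries lay below both day 2 libraries, which lay far below day 0. Ier2 fell 2.31-fold by day 2 (log2 fold change -1.21 ± 0.12, adjusted p = 1.14e-05) and stood 2.70-fold lower at day 4 (-1.43 ± 0.12, adjusted p = 1.79e-06). The change between day 2 and day 4 was not called (-0.23 ± 0.12, adjusted p = 0.193).

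Ier3 (NM_133662, chr17:35821713-35822911, 2 exons, plus strand), known as IEX-1 and as a modulator of ERK signaling and apoptosis, had 11.3 and 10.8 CPM at day 0, 6.18 and 6.64 at day 2, and 8.31 and 9.02 at day 4. As for Egr1, the 3 days did not overlap and day 2 was lowest. Ier3 fell 1.73-fold by day 2 (log2 fold change -0.79 ± 0.14, adjusted p = 0.000545). The later values were 0.44 ± 0.14 for day 4 against day 2 (adjusted p = 0.037) and -0.35 ± 0.14 for day 4 against day 0 (adjusted p = 0.0378). Both of these were lost with DESeq2 (adjusted p = 0.0526 and 0.0621) and with total counts as the scaling (adjusted p = 0.0858 and 0.148), and both when either day 2 or either day 4 library was left out (adjusted p between 0.0644 and 0.245). The value for day 4 against day 0 was also lost without day 0 replicate 1 and with only the 2 days compared in the fit. It was called in 8 of 16 settings, the main one included.

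**Figure D3:**
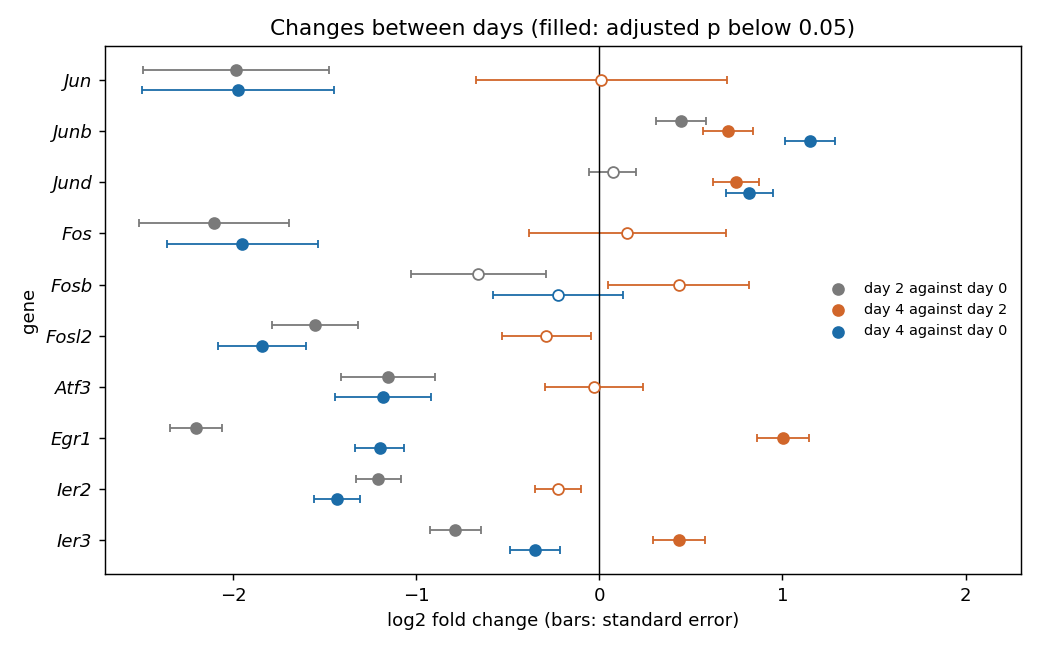
log2 fold changes (horizontal axis) of the 10 genes for day 2 against day 0 (grey), day 4 against day 2 (orange) and day 4 against day 0 (blue), with bars of 1 standard error and filled points for an adjusted p below 0.05. Egr1 has the lowest grey point (-2.20) and the highest orange point (1.00), and only Junb and Jund have blue points above 0.

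Counted over the group, 8 of the 10 genes changed from day 0 to day 2, 1 higher (Junb) and 7 lower, among them Jun and Fos, which could pass the filter only by being higher at day 0. Of the 8 genes that passed it on every day, 1 was higher and 5 were lower. Over all 12381 genes tested the same comparison called 62.5% (31% higher and 31.5% lower). The median log2 fold change was -1.18 for the 10 genes, -0.97 for those 8 and 0.01 for all genes. In 1 gene both day 2 libraries lay above both of day 0, in 8 they lay below, and in 1 they overlapped. The 8 include Jun, Fos and the uncalled Fosb. Non-overlap was not counted over all genes, so these counts have no share to be set against.

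From day 2 to day 4, 4 genes changed and all 4 were higher (Junb, Jund, Egr1 and Ier3), against 30.3% of all genes (14% higher and 16.2% lower). The medians were 0.29 for the group and -0.0046 for all genes. When a doubling was required beside the p-value (log2 fold change of 1 or more), Egr1 alone was called. Fewer of these genes were called without day 2 replicate 1. Shares over all genes were not counted for either setting.

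From day 0 to day 4, 9 genes changed, 2 higher (Junb and Jund) and 7 lower, against 71.8% of all genes (35.5% higher and 36.4% lower). The 7 again include Jun and Fos, and of the 8 genes that passed the filter on every day 2 were higher and 5 lower. The medians were -1.19 for the group, -0.77 for those 8 and -0.02 for all genes. These comparisons share libraries, so they are not independent of each other. With total counts in place of TMM the median of all genes moved to 0.21, -0.09 and 0.10 for the 3 comparisons, and the calls over all genes were 5001 higher and 2881 lower instead of 3841 and 3902, 1228 and 2532 instead of 1739 and 2010, and 4916 and 4006 instead of 4393 and 4501. No called direction of the 10 genes turned with that scaling.

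The late step was also tested against the early step, as the log2 change from day 2 to day 4 minus that from day 0 to day 2, in which the day 2 libraries enter both. For 5 genes this difference was called and positive, against 30% of all genes (13.1% positive and 16.9% negative). It was 3.21 ± 0.26 for Egr1 (adjusted p = 4.65e-05), 1.22 ± 0.25 for Ier3 (adjusted p = 0.00483) and 0.98 ± 0.22 for Ier2 (adjusted p = 0.00758). For Fosl2 it was 1.26 ± 0.42 (adjusted p = 0.0427) and for Jund 0.68 ± 0.22 (adjusted p = 0.0396). Egr1 and Ier3 turned from a fall to a rise, Ier2 and Fosl2 had a called fall in the early step and no call in the late one, and Jund had no call in the early step and a called rise in the late one. Without day 2 replicate 1 or without day 2 replicate 2 only the difference of Egr1 was still called (3.08 and 3.34), and total counts left 3 of the 5 calls.

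By level per kilobase, Ier2 (22.6 ± 1.58 CPM per kilobase) and Junb (22.3 ± 3.74) were the most abundant of the 10 genes at day 0, and their libraries overlapped. Jund (16.2 ± 2.39), Ier3 (9.79 ± 0.288), Egr1 (6.90 ± 0.501), Atf3 (4.33 ± 0.0147) and Fosl2 (3.25 ± 1.31) followed, each with both libraries below those of the gene before. Over its RefSeq span, Jund would have between 8.42 and 10.4 CPM per kilobase at day 0 and would overlap Ier3. Fos (0.274 ± 0.0231) was next, and Jun (0.138 ± 0.0104) and Fosb (0.132 ± 0.0397) overlapped. At day 4 the order was Junb (49.3 ± 1.99), Jund (28.7 ± 0.918), Ier2 (8.36 ± 0.336), Ier3 (7.66 ± 0.440), Egr1 (3.0 ± 0.152), Atf3 (1.93 ± 0.947), Fosl2 (0.908 ± 0.0463), Fosb (0.114 ± 0.00439), Fos (0.0682 ± 0.0221) and Jun (0.0338 ± 0.0110), with no overlap between neighbors. With 2 libraries a day, an order between close neighbors such as Ier2 and Ier3 rests on few values and was not tested.

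The genes with the most similar course were looked for among 10447 tested genes whose average log2 CPM was 1 or more, by the root mean square difference of log2 CPM over the 6 libraries after centring each gene. This is a description over 6 libraries that share their days. The log2 CPM had a prior count of 2, which shrinks the differences of genes with few reads, here Jun, Fos and Fosb. Nearest to Junb were Sirt7 (0.0650) and Chkb (0.0718), and nearest to Jund were Trim39 (0.0296) and Epb41 (0.0604). For the genes that fell, the nearest were Rel (0.304) and Crlf2 (0.314) to Jun, Lyl1 (0.118) and Sdf2l1 (0.123) to Fos, Klhdc4 (0.0692) and Def6 (0.0734) to Fosl2, Thap6 (0.114) and 2010320M18Rik (0.151) to Atf3, and Fkbp4 (0.0502) and Tbrg4 (0.0513) to Ier2.

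Nearest to Egr1 were H2bc9 (0.199) and 2310039H08Rik (0.276). Psmd3 (0.0430) and Cox4i1 (0.0534) were nearest to Ier3, and Ccdc134 (0.0532) and Zfp219 (0.0747) to Fosb. Within the group the closest pairs were Junb with Jund (0.177), Fosb with Ier3 (0.217) and Fos with Ier2 (0.280). The farthest were Junb with Fos (1.26) and Jun with Junb (1.26). Distances that involve Jun, Fos or Fosb carry the limit of few reads given above.

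The other AP-1 subunits held 14 genes (Batf, Jdp2, Maf and further ATF genes), of which 13 had a row in the tables and 9 were tested. From day 0 to day 4, 7 changed, 1 higher and 6 lower, with a median log2 fold change of -1.80. The 6 and the median include Fosl1 (-3.38), which passed the filter through the day 0 libraries alone. No median was taken without it. Jdp2, a Jun dimerization protein that represses AP-1 sites, had 31.1 and 25.6 CPM at day 0 and 4.85 and 3.20 at day 4 and fell by 2.83 (log2, ± 0.19 SE, adjusted p = 3.22e-07). Maff fell by 2.20 (± 0.43, adjusted p = 0.000717) and Batf, a leucine zipper partner of Jun proteins in lymphocytes, by 2.06 (± 0.17, adjusted p = 1.22e-06). Mafk, the small Maf partner of the erythroid factor NFE2, was the 1 that rose (0.53 ± 0.11, adjusted p = 0.00152).

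Among 41 other immediate early genes 31 were tested, and 27 changed from day 0 to day 4, 16 higher and 11 lower, with a median of 0.41. The 16 include Nr4a3, which passed the filter on low counts through the later days alone. The 11 include Egr3, which would not have passed it without the day 0 libraries. Btg2, an antiproliferative gene, went from 9.34 and 11.8 CPM at day 0 to 130 and 137 at day 4 and rose by 3.66 (± 0.14, adjusted p = 1.24e-08). Socs3, a feedback inhibitor of cytokine signaling, rose by 3.39 (± 0.22, adjusted p = 2.39e-07) and Dusp1, the phosphatase of JNK and p38, by 2.59 (± 0.15, adjusted p = 1.17e-07). The largest falls were those of Dusp6, the ERK phosphatase (-3.12 ± 0.21, adjusted p = 3.23e-07), Sgk1, a serum-induced kinase (-2.54 ± 0.21, adjusted p = 1.16e-06), and Cebpb (-1.62 ± 0.13, adjusted p = 1.05e-06). Egr4, Ier5l, Klf2, Klf4, Ccn2 and Ptgs2 had no reads in these libraries.

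Of the 31 kinases and factors that feed these genes through ERK, JNK, p38 and SRF, all were tested and 22 changed from day 0 to day 4, 16 higher and 6 lower, with a median of 0.38. The kinase genes Rps6ka5 (1.58 ± 0.13, adjusted p = 1.51e-06), Rps6ka4 (1.32 ± 0.18, adjusted p = 5.25e-05) and Braf (1.23 ± 0.10, adjusted p = 1.52e-06) rose most. Rps6ka1, an ERK-activated kinase, fell by 1.65 (± 0.12, adjusted p = 4.37e-07), Hras by 0.62 (± 0.14, adjusted p = 0.00156) and Rps6ka2 by 0.51 (± 0.15, adjusted p = 0.00903).

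Among 21 genes listed for restraint of AP-1 protein, mRNA or its upstream kinases 19 were tested. Of these 15 changed from day 0 to day 4, 8 higher and 7 lower, with a median of 0.28. The 7 include Elavl1, which is known for stabilizing AU-rich mRNAs and so is not a restraint gene in that sense. Zfp36, which destabilizes AU-rich mRNAs such as that of Fos, went from 1.59 and 1.41 CPM at day 0 to 5.35 and 6.47 at day 4 and rose by 1.98 (± 0.20, adjusted p = 5.21e-06). Dusp1, also in the list above, rose as given there, and Dusp10 rose by 1.44 (± 0.18, adjusted p = 2.73e-05). Spred2, an inhibitor of the Ras and ERK pathway, had 23.3 and 19.7 CPM at day 0 and 1.33 and 1.59 at day 4 and fell by 3.87 (± 0.19, adjusted p = 4.6e-08). Among the listed genes with an average log2 CPM of 1 or more, Dusp6 was next and then Spred1 (-1.64 ± 0.13, adjusted p = 1.17e-06). All 4 lists were called at a share of 71% to 87.1%, and 71.8% of all genes were.

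For the first step the same lists had 7 of 9 AP-1 subunits called (1 higher, 6 lower), 23 of 31 immediate early genes (14 higher, 9 lower), 17 of 31 upstream genes (11 higher, 6 lower) and 14 of 19 restraint genes (7 higher, 7 lower). From day 2 to day 4 these were 5 (2 higher, 3 lower), 15 (11 higher, 4 lower), 8 (7 higher, 1 lower) and 6 (4 higher, 2 lower). Over all genes 62.5% were called in the first step and 30.3% in the late one, and the upstream genes, at 54.8% and 25.8%, lay below both. The first-step counts include Fosl1, Nr4a3, Egr3 and Elavl1, with the limits given above. Without day 2 replicate 1 all 4 late counts were lower, and the share over all genes was not counted for that setting.

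**Figure D4:**
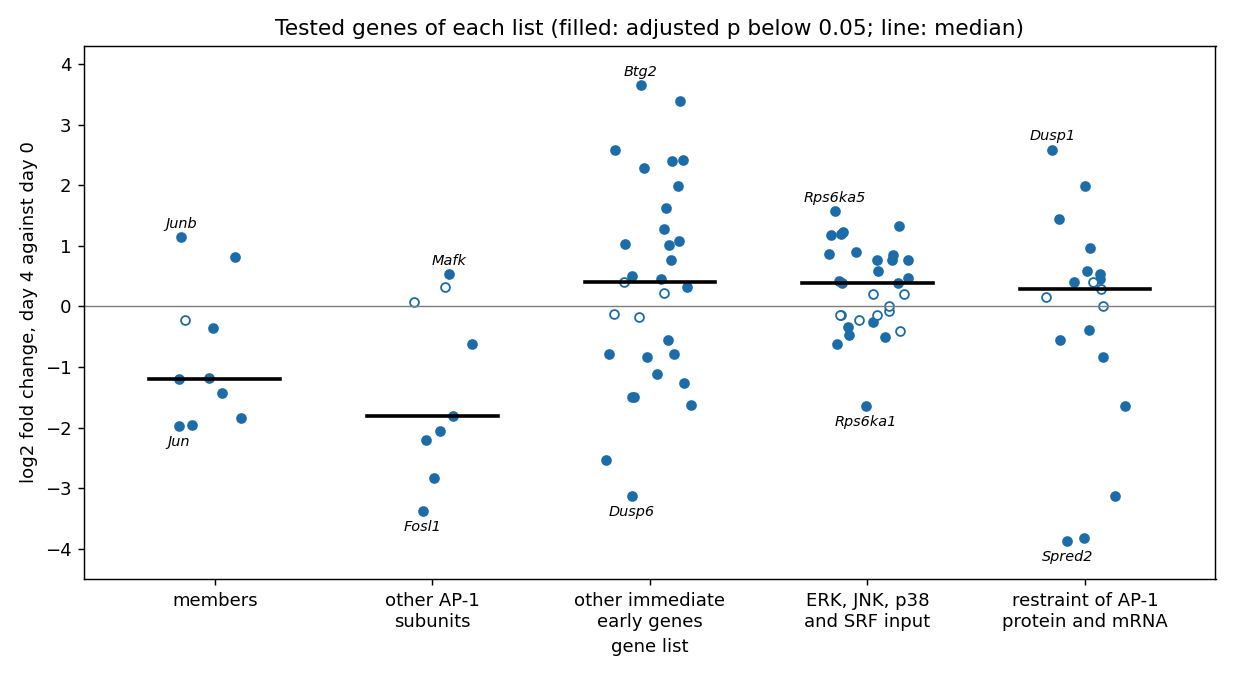
log2 fold change for day 4 against day 0 (vertical axis) of every tested gene in the group of 10 and in the 4 lists named on the horizontal axis, with filled points for an adjusted p below 0.05, black lines for the medians and names for the highest and the lowest gene. The median of the AP-1 subunits is -1.80 and that of the group -1.19, while the medians of the other 3 lists lie between 0.28 and 0.41. The AP-1 subunits include Fosl1 and the group includes Jun and Fos, which passed the low-count filter through day 0 alone.

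Immediate early mRNAs also respond to handling of cells, so 12 heat shock and handling genes were counted beside them. Their summed level was between 2680 and 2855 CPM at day 0, between 1779 and 1851 at day 2 and between 1679 and 1822 at day 4, and of 9 tested 2 were higher and 5 lower at day 4 than at day 0 (77.8%, against 71.8% of all genes). The largest falls in CPM were those of Hsp90aa1 (means of 910 at day 0 and 399 at day 4) and Hspd1 (593 and 141). Dnajb1 (66.2 and 83.5) and Bag3 (11.6 and 17.7) were the 2 called higher, and Hspa8 and Hsph1 were not called. Hspa1a and Hspa1b had at most 5 reads in a library and were not tested, and Hspb1 was at 0 in all libraries. The part of these changes in the falls of Fos, Jun, Egr1, Atf3, Ier2 and Ier3 was not tested.

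Markers of other blood cells were mostly low and differed between days. The 7 macrophage and monocyte markers summed to between 6.91 and 7.43 CPM at day 0 and between 2.50 and 3.02 at day 4, the 6 mast cell markers to between 7.01 and 7.48 and then between 0.486 and 0.804 (Tpsb2 at 0), and the 6 granulocyte markers with a row to between 1.40 and 1.49 and then between 0.309 and 0.388 (S100a8 and S100a9 at 0). The 6 megakaryocyte markers summed to between 269 and 272 CPM at day 0, between 214 and 237 at day 2 and between 548 and 622 at day 4. Most of that sum was Itga2b, which rose from a mean of 218 CPM at day 0 to 569 at day 4. Of the 5 megakaryocyte markers tested, 3 were called higher at day 4 than at day 0 (Itga2b, Gp1ba and Gp9). The 2 called lower were Pf4 and Ppbp. Gp1ba rose by 2.51 (log2) and Gp9 by 0.66. Pf4 fell from 57.4 and 42.7 CPM at day 0 to 10.2 and 8.93 at day 4, and Ppbp was at 0 at day 4. The 7 lymphocyte markers stayed at or below 1.38 CPM in sum (Ms4a1 and Cd8a at 0) and the 6 fibroblast markers at or below 3.24 (Col3a1, Dcn and Lum at 0). Their part in the changes of the 10 genes was not tested.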

How the data were processed

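mRNA-seq counts were used as deposited. Per the labels and the study's methods, the authors made stranded TruSeq libraries, trimmed reads with cutadapt, aligned them to mm10 with TopHat in its fr-secondstrand mode and counted reads per RefSeq transcript with HTSeq. The strand setting of the counting is not given in the sources used here, so antisense reads over Jun and Jund cannot be told apart. Transcripts of 1 gene that share exons share reads, and reads outside transcripts (50.5% to 58.4% of each deposited table) stayed out of library sizes.

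Of 32654 transcripts 32199 were named from the RefSeq table and 187 from GENCODE. Counts were scaled by TMM (factors 0.921 to 1.07), filtered with filterByExpr by day, and tested with edgeR 4.0.16 (R 4.3.3) by the quasi-likelihood test over all 6 libraries. The Benjamini-Hochberg adjustment ran over 18351 transcripts, and 12381 genes were counted by the transcript with the highest mean count. Calls needed an adjusted p below 0.05. Levels between genes were compared as CPM per kilobase of GENCODE exon. The fit was tested on simulated data. DESeq2 1.42.0, other scalings, filters, transcripts and left-out libraries were alternatives. A fit without 1 library assumes that the lone library of its day varies like the others. Of each list, the text names the called genes that rose most and fell most from day 0 to day 4 (3 each way), if their average log2 CPM was 1 or more. The members and lists were chosen with earlier results of these data known.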

Additional observations from a re-analysis of the deposited data

Results flagged for a closer look

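For 5 of the genes the early and the late step differed, by the test of the difference between the 2 steps. The log2 change of the late step minus that of the early step was 3.21 for Egr1, 1.26 for Fosl2, 1.22 for Ier3, 0.98 for Ier2 and 0.68 for Jund. The day 2 libraries enter both steps with opposite sign, and with either day 2 library left out the difference of Egr1 alone passed the threshold.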

How the results depend on the processing

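The replicate numbers did not pair the libraries (correlations of same-numbered deviations 0.0316, 0.0451 and 0.0791 for the 3 pairs of days), and with the replicate number as a block 8, 4, 9 and 5 of the 10 genes were called for the first step, the late step, the net change and the difference of the 2 steps, as without it. Total counts in place of TMM left 3 calls for the difference of the 2 steps and 5 upstream genes called for day 4 against day 2. When a log2 fold change of 1 or more was also required, the calls were 12 immediate early, 5 upstream and 5 restraint genes for day 2 against day 0. In the late step, day 4 against day 2, they were 1 of the 10 genes, 2 AP-1 subunits, 5 immediate early, 0 upstream and 3 restraint genes. For the net change, day 4 against day 0, they were 6 upstream and 7 restraint genes, and for the difference of the 2 steps 3 of the 10 genes. Leaving out 1 library gave 2 to 4 of the 10 genes for day 4 against day 2 and 1 to 5 for the difference, and for day 4 against day 2 gave 2 to 6 AP-1 subunits, 4 to 20 immediate early, 1 to 9 upstream and 3 to 8 restraint genes. The cause of these changes was not tested beyond their construction: fewer libraries or a stricter call. Shares of all genes were not counted for the stricter call or with a library left out. The counts given for those settings, here and above, therefore cannot be set against all genes.

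Of the single-gene values under all alternatives, 544 kept direction and side of the threshold, 33 lost a call, 2 gained one and 9 changed sign, and those 9 were not called with either sign. With total counts these were Jun for day 4 against day 2 (-0.0737) and Junb for the difference of the 2 steps (-0.0255). With 1 library left out, Jun ranged from -0.55 to 1.15, Fos from -0.25 to 0.41 and Atf3 from -0.63 to 0.41 for day 4 against day 2, Jund from -0.0708 to 0.22 for day 2 against day 0, and Fosb from -0.49 to 0.12 for day 4 against day 0. Depth limits Jun, Fos and Fosb, which had at most 30 reads in a library.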

Other observations

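In CPM, Jun differed most between the day 2 libraries and Atf3 between the day 4 libraries. In some others of these genes the day 0 libraries differed from each other more than the later ones did. Fosl2 (15.2 against 27.3 CPM), Fosl1 (0.833 against 1.97 CPM) and Maff (2.40 against 6.65 CPM) were higher in replicate 2, while Egr1 (22.0 against 19.9 CPM), Ier2 (36.1 against 32.7 CPM) and Fos (0.613 against 0.544 CPM) were slightly higher in replicate 1. Fosl1, named here after its values were seen and below the level required of named list genes, passed the filter on low counts through the day 0 libraries alone and had no reads in day 2 replicate 1, 0.204 CPM in day 2 replicate 2, and 0.0831 and 0.177 CPM at day 4. Spry4, an ERK pathway inhibitor also below that level and named after its values were seen, had 3.58 and 3.06 CPM at day 0 and 0.139 and 0.309 CPM at day 4.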
